A study of Mus musculus with 2 samples.

Results

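Pericytes and vascular smooth muscle cells, the mural cells that wrap capillaries and larger vessels, were examined through the accessible chromatin around 10 of their genes: Cspg4, Pdgfrb, Rgs5, Notch3, Mcam, Abcc9, Myh11, Tagln, Cnn1 and Myocd. The regions described are all peaks centred within 50 kb of any GENCODE transcript start of these genes, with the footprints inside them. They number 119 of 94295 peaks in replicate 1 and 169 of 123291 in replicate 2, a mean of 144 ± 35.4 (SD, n = 2). All 10 genes were found among the 21938 protein-coding genes of the annotation. DNase-seq, which sequences the sites where DNase I can cut DNA that is not shielded by nucleosomes, was applied to nuclei of whole gastrocnemius, a calf muscle. Both libraries came from male mice of the strain B6CASTF1/J, a cross of C57BL/6J and CAST/EiJ, at an age of 4 days, with no treatment or altered gene named, and each label speaks of 3 males. The labels call the libraries biological replicates 1 and 2, from separate tissue samples that share a donor entry, so their spread may be partly technical. They form 1 group, no contrast could be tested, and all values below are levels or counts with the spread of the 2 libraries.

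Mural cells are recruited to growing vessels by PDGF-B from the endothelium, which binds the receptor Pdgfrb on their surface, and their maturation in arteries depends on signalling through Notch3. The contractile genes of smooth muscle are switched on by the transcription factor SRF together with its coactivator myocardin, the product of Myocd, and SRF binds a sequence called the CArG box. Skeletal muscle is densely supplied with capillaries, so pericytes are a regular but small part of it, beside the muscle fibres and other cells. The share of nuclei from each cell type was not measured here.

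CArG boxes close to a member's own start were found at the contractile genes Tagln, in its promoter, and Myh11, in a peak further upstream. A CArG box occurred 4 times in the regions shared by both libraries, and the 3 sites at Tagln and Myh11 are shown here because this motif defines the programme that myocardin drives (10 bases on either side in lower case, CArG box in capitals, plus strand of mm10).
Tagln, chr9:45936028-45936057: cacacaggctCCATATTTGGggaaagacac
Tagln, chr9:45936151-45936180: ccgggaaaaaCCTTTTATGGgcaggaccct
Myh11, chr16:14292311-14292340: accactcaggCCATAAAAGGaagtcgaggc
The Tagln boxes lay at 11 and -112 bp from the most upstream of its 2 protein-coding starts, where negative values are upstream. Distances here are from the most upstream protein-coding start of a gene, and where the boxes lie relative to the other Tagln start was not examined. The Myh11 box lay at -958 bp. The Tagln box at 11 bp was inside the peaks of both libraries, the box at -112 bp only in the wider peak of replicate 2, and the Myh11 box only in the peak of replicate 1. None of these 3 lay in or touched a footprint, a short stretch guarded from DNase I within open DNA. Of all CArG boxes in regions shared by both libraries, only 2.64% lay in a footprint of both. With 3 boxes, their absence from footprints therefore says nothing about whether SRF is bound.

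Upstream promoter sequences are shown for 4 genes that differ in strength, to set the most open starts beside the weakest. Each is the part of the replicate 1 promoter peak that lies before the first annotated start, on the strand of the gene and 5′ to 3′, with capitals for bases inside a footprint of both libraries.
Cspg4, chr9:56864901-56865032, plus strand: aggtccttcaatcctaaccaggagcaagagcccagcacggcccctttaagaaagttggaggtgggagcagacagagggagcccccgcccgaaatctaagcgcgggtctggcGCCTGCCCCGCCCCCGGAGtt
Notch3, chr17:32166853-32167020, minus strand: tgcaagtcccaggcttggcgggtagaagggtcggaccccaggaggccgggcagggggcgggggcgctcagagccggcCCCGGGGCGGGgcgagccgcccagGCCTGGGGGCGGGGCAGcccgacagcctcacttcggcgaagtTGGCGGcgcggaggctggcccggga
Myh11, chr16:14291373-14291560, minus strand: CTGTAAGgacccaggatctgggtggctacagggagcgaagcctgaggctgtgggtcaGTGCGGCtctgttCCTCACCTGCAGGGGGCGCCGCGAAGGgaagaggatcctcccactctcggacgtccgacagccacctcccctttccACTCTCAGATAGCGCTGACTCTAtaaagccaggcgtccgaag
Rgs5, chr1:169655392-169655490, plus strand: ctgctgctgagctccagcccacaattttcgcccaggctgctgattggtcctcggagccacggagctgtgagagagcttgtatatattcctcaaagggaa
Of the 188 bases shown for Myh11, 64 were inside footprints of both libraries, the most of the 4. The count was 34 of 168 for Notch3, 19 of 132 for Cspg4 and 0 of 99 for Rgs5. In Notch3 the footprints at -61 and -87 bp each cover a GC box, GGGCGG, the core bound by KLF and Sp1 factors, and in Cspg4 the footprint next to the start covers one at -14 bp. No GC box and no CArG box occurred in the stretch shown for Myh11. Such a match describes letters in the C57BL/6J reference, and a base changed on the CAST copy would not be seen.

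Distal peaks, centred more than 1 kb from every annotated start, are shown for Notch3 and Tagln (strand of the gene, capitals as before). They are examples of genes whose own distal peak had a higher cut density than the promoter in both libraries. This also held at Pdgfrb and Myocd, described below.
Notch3, chr17:32173281-32173480, minus strand: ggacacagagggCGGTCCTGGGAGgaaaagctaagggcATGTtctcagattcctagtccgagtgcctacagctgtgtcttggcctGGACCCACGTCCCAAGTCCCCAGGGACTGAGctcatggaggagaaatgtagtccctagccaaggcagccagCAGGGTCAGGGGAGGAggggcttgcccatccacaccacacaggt
Tagln, chr9:45937021-45937200, minus strand: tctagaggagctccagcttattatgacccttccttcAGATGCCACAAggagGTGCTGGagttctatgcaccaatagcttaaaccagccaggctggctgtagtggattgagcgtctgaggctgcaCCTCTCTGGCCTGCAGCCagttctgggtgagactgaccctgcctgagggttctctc
The Notch3 element had 63 of its 200 bases in footprints of both libraries, and the Tagln element 36 of 180. Neither held a CArG box. The Tagln element was centred at -1052.5 bp in replicate 1, only just past the limit of 1 kb.

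A promoter peak was present in both libraries at all 10 genes and at 64.1% of all protein-coding genes, a promoter being 500 bp on either side of a protein-coding start. Their strength differed widely. It is given as a rank, the percentile of a peak's cut density among all peaks of its own library, and ranks of the 2 libraries are not compared as change because the lists differ in length. The median promoter rank of the 10 genes was 74.0 in replicate 1 and 79.0 in replicate 2, against 91.2 and 93.2 over all genes open in both. Each of the 10 genes was under that median in each library. The genes behind the median were not matched to the 10 for CpG content, with which openness rose over all genes, as described below. In whole muscle, fewer cells of a type and less open chromatin per cell cannot be told apart.

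**Figure D1:**
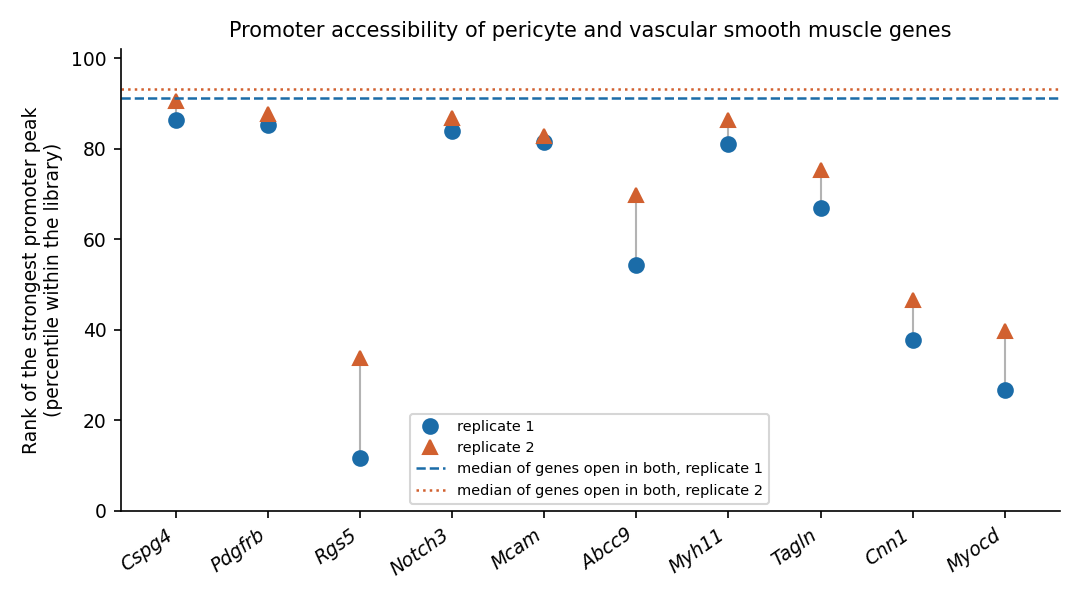
Rank of the strongest promoter peak (percentile within the library) of the 10 genes, circles for replicate 1 and triangles for replicate 2, with dashed and dotted lines at the medians over all genes open in both libraries. 5 genes lie above 80 in both libraries, and Rgs5, Myocd and Cnn1 lie under 50 in both.

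The surface proteins and receptors of pericytes were open in both libraries. Cspg4, which encodes the NG2 proteoglycan (chromosome 9, 56865033 to 56899870), had a promoter density of 3.15 in replicate 1 and 2.32 in replicate 2. Its ranks of 86.4 and 90.5 gave the highest mean of the 10, 88.5 ± 2.87 (SD, n = 2). The peak spanned the same 220 bp, from 56864901 to 56865120, in each, with 1 footprint in replicate 1 and 5 in replicate 2. Notch3, the mural cell Notch receptor (chromosome 17, 32120820 to 32166852), had densities of 2.70 and 1.76 and ranks of 84.0 and 86.8. Its mean rank was 85.4 ± 1.97, with 3 and 4 footprints. Mcam, the adhesion molecule CD146 (chromosome 9, 44134469 to 44142727), had densities of 2.35 and 1.40 and ranks of 81.5 and 82.8. These were the closest pair of the 10, with a mean of 82.2 ± 0.956, but they came from unlike peaks. In replicate 1 the strongest was a 200 bp peak centred at -361.5 bp, and the peak over the start ranked 76.2. Open chromatin at Mcam was spread over several peaks, 4 of which touched its promoters in replicate 1 and 6 in replicate 2, where the main one was 680 bp wide and held 13 footprints.

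The promoters of Rgs5 and Abcc9 were weaker. Rgs5, a regulator of G protein signalling that marks pericytes (chromosome 1, 169655501 to 169695813), had the lowest promoter, with densities of 0.351 in replicate 1 and 0.380 in replicate 2. The ranks were 11.6 and 33.7, and the mean was 22.6 ± 15.6 (SD, n = 2), the widest spread of the 10. Its promoter peak held no footprint in replicate 1 and 1 in replicate 2. Abcc9, a sulphonylurea receptor subunit of potassium channels (chromosome 6, 142587862 to 142702315), had densities of 0.959 and 0.830, ranks of 54.2 and 69.9 and a mean of 62.0 ± 11.1.

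The contractile genes fell into different levels. Myh11, the smooth muscle myosin heavy chain (chromosome 16, 14194535 to 14291372), had promoter densities of 2.30 and 1.72, ranks of 81.1 and 86.4 and a mean of 83.8 ± 3.76, with 6 and 5 footprints. Tagln, the actin-binding protein transgelin or SM22 (chromosome 9, 45929619 to 45936058), had densities of 1.32 and 1.00, ranks of 66.8 and 75.2 and a mean of 71.0 ± 5.97. Its peak is centred in the 5′ UTR in both libraries and held 3 and 5 footprints. Cnn1, calponin (chromosome 9, 22099216 to 22109630), stood lower, with densities of 0.675 and 0.480, ranks of 37.7 and 46.6 and a mean of 42.2 ± 6.31. Myocd, the coactivator of SRF (chromosome 11, 65176561 to 65269989), had densities of 0.540 and 0.423, ranks of 26.8 and 39.7 and a mean of 33.3 ± 9.15, with 1 footprint in each library. By the rank of its strongest promoter peak, the regulator thus stood below each of its 3 contractile targets among the members, in both libraries. The extent of open promoter gave another order. Of 1001 bases around the most upstream start, Myocd had 312 and 766 with a false discovery rate below 0.05. Cnn1 had 220 and 165, Tagln 288 and 373 and Myh11 412 and 414.

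Pdgfrb, the receptor through which PDGF-B recruits mural cells, is on chromosome 18 (61045150 to 61085061), and its sequence is not shown. Its promoter had densities of 2.92 and 1.87, ranks of 85.3 and 87.7 and a mean of 86.5 ± 1.71 (SD, n = 2). In order of mean rank the genes were Cspg4, Pdgfrb, Notch3, Myh11, Mcam, Tagln, Abcc9, Cnn1, Myocd and Rgs5. Neighbours among the first 5 differed by less than the SD of at least 1 of them, as did Tagln from Abcc9, Cnn1 from Myocd, and Myocd from Rgs5. Each gene ranked higher in replicate 2, so the SD includes a shift in 1 direction and does not show that neighbours are tied. Within each library the order was the same, except that Mcam stood above Myh11 in replicate 1, at 81.5 against 81.1. Tagln thus stood above Abcc9, Cnn1 above Myocd, and Myocd above Rgs5 in both libraries. The values of Mcam and Tagln did not overlap between the libraries, nor did those of Abcc9 and Cnn1. By this criterion alone the order has 3 steps: 5 genes at 82.2 or more, Tagln and Abcc9, and then Cnn1, Myocd and Rgs5.

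The order did not follow the CpG content of the promoters, although over all genes openness rose with it. Genes were put into 10 equal classes by the observed over expected CpG ratio within 500 bp of the start. Cspg4, Pdgfrb, Rgs5, Myh11 and Tagln all fell in class 4, where 43.9% of genes were open in both, and their mean ranks ran from 22.6 to 88.5. Cnn1 was in class 3, with 23.6% open, and Abcc9 and Myocd were in class 5, with 75.7% open. Notch3, in class 6, and Mcam, in class 7, had CpG ratios of 0.608 and 0.687, and 90.6% and 95.7% of the genes in their classes were open. Myocd thus had more CpG than Cspg4, at ratios of 0.552 and 0.365, and the weaker promoter.

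Distal elements of the genes were as strong as or stronger than several promoters. The 10 genes each had at least 1 distal peak shared by both libraries, where 76.4% of all protein-coding genes had one, and the median was 3.5 against 2 over all genes. The strongest near Pdgfrb lay in its own intron at 23440.5 bp from the start, had densities of 4.73 and 2.82 and a mean rank of 92.2 ± 0.607 (SD, n = 2). It spanned the same 180 bp in both libraries, ranked above the promoter, and held 4 and 5 footprints, of which 4 in replicate 1 overlapped one of replicate 2. The intergenic Notch3 peak printed above, at -6528.5 bp, had densities of 4.34 and 2.37, spanned the same 200 bp in both and ranked 90.7 in each.

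At Tagln and Myocd and in the Cnn1 window the strongest distal peak ranked above the promoter in both libraries. The strongest in the Cnn1 window, at 44304.5 bp with a mean rank of 91.3 ± 0.726 (SD, n = 2), was nearer to the start of Acp5, an acid phosphatase gene. Tagln had its strongest distal peak at -1052.5 bp, with densities of 1.82 and 1.17 and a mean rank of 77.6 ± 2.37. With promoters of 1000 bp on either side this peak counted as the Tagln promoter peak, so the contrast at Tagln depends on the limit chosen. For Myocd, the strongest distal peak was in its intron, 72518.5 bp from the most upstream start and 7996.5 bp from its nearest start. It had densities of 0.905 and 0.976 and ranks of 51.7 and 74.6, both above its promoter.

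In the other genes the distal peak did not rank above the promoter in both libraries, except near Mcam. The strongest near Cspg4 was intergenic at -20942.5 bp, with a mean rank of 87.9 ± 1.18 (SD, n = 2), but the start of Odf3l1 was nearer. Within Cspg4 the strongest was intronic at 17997.5 bp, with a mean rank of 82.0 ± 2.69. Cspg4 had 19 shared distal peaks in its window of 131291 bp and Notch3 had 14 in 133088 bp, where most other windows span about 100 kb. When an overlap of 50% of both peaks was required, Cspg4 had 10 and Notch3 11, so their order turned, and with replicate 2 alone Cspg4 and Mcam each had 27 distal peaks. Near Mcam a peak at -8351.5 bp in an intron of the noncoding gene Gm10687 ranked 89.5 ± 3.55, and the strongest for which Mcam was nearest, at -4341.5 bp, ranked 81.4 ± 0.203. Intronic peaks of Myh11 at 32271.5 bp, of Abcc9 at 34014.5 bp and of Rgs5 at 15328 bp had mean ranks of 59.3 ± 5.02, 54.3 ± 0.137 and 24.1 ± 1.49. Rgs5 had 3 peaks in each library, all shared, and none ranked above 33.7, so the whole surroundings of the gene were weakly open.

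**Figure D2:**
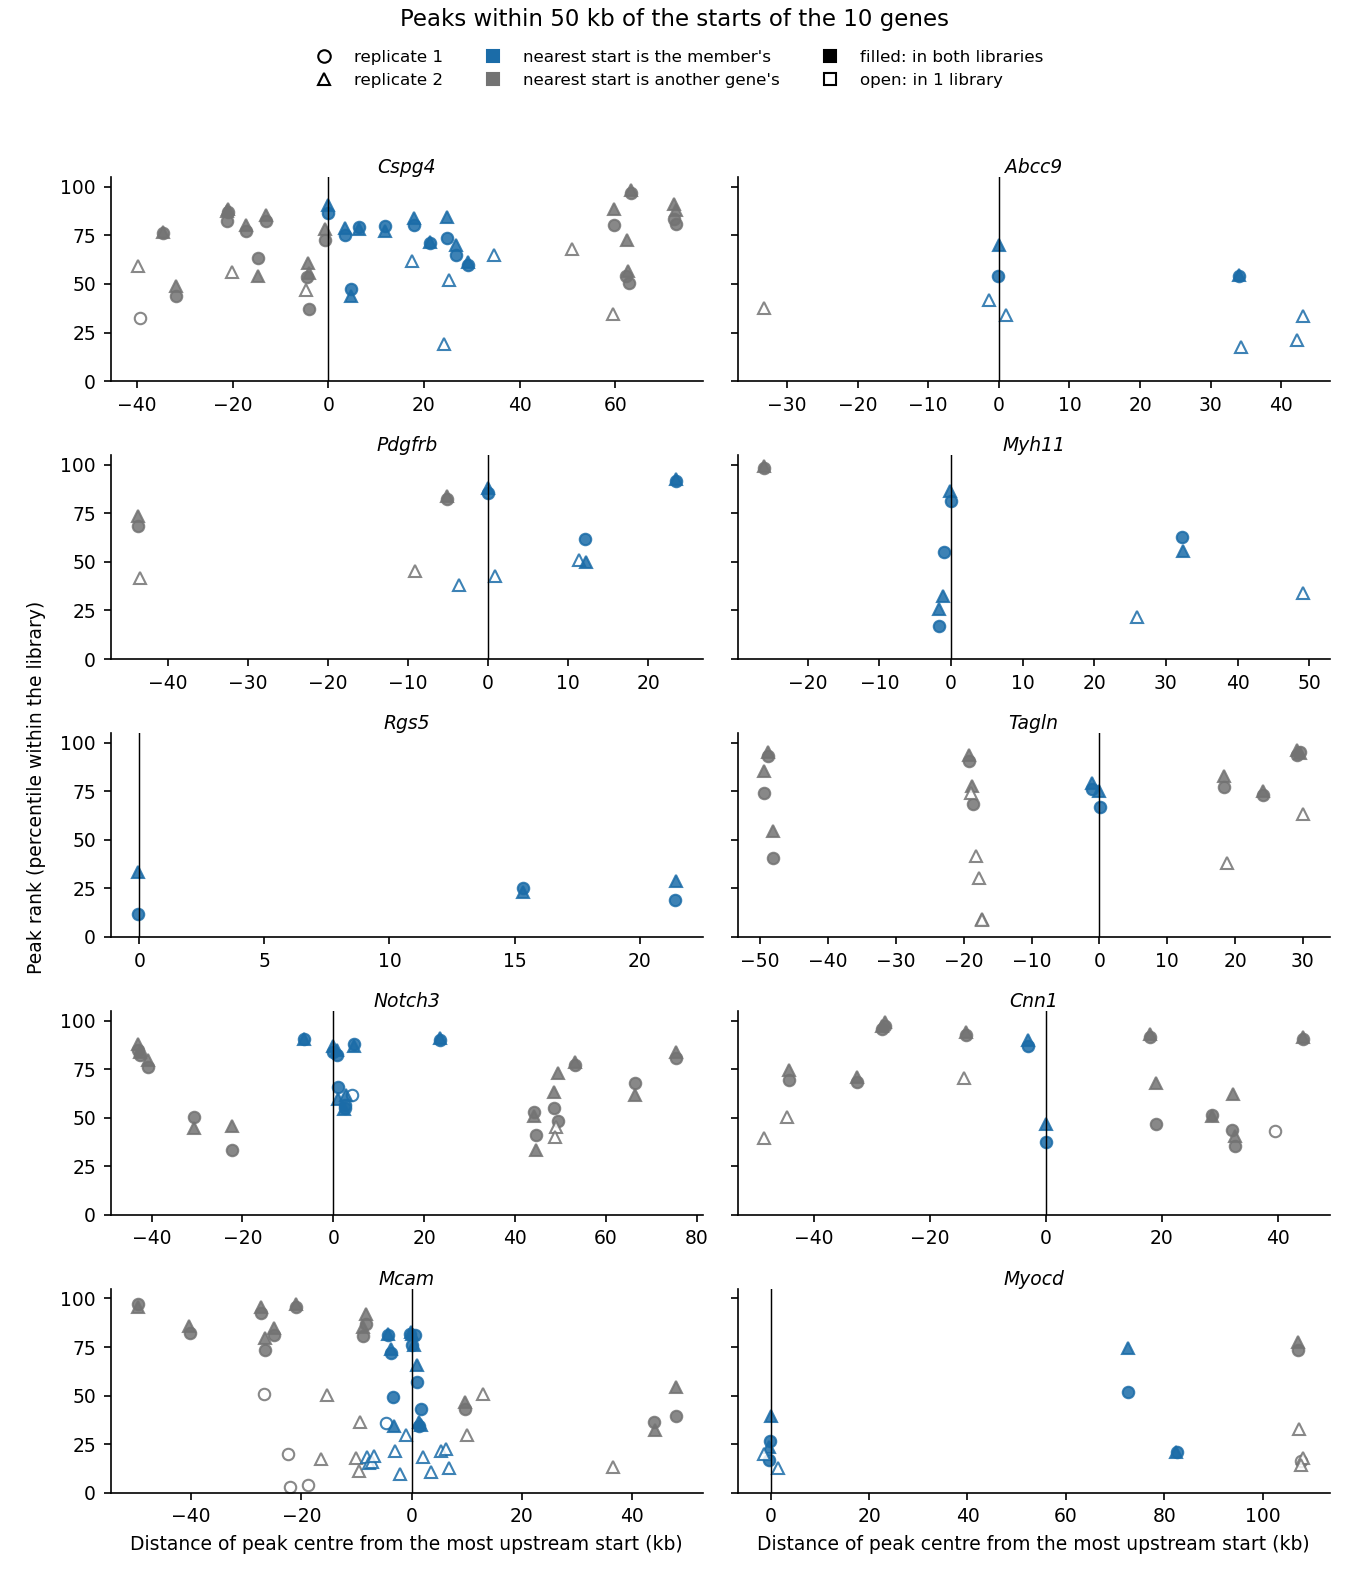
Rank of each peak (percentile within the library) against the distance of its centre from the most upstream protein-coding start, in kb and positive downstream, 1 panel per gene. Blue marks peaks whose nearest start is the gene's and grey those nearer to another gene, and filled symbols are in both libraries. The strongest peaks around Myh11, Tagln and Cnn1 are grey, while all 3 of Rgs5 are blue and low.

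Most peaks in the windows lay nearer to a neighbouring gene. The nearest annotated start was another gene's for 70 of 119 peaks in replicate 1 and 94 of 169 in replicate 2, and 36 and 45 peaks were within 1 kb of such a start. The 10 strongest peaks of each library were all of this kind. Near Myh11 the strongest peak, with ranks of 98.3 and 99.2, lay at the start of Fopnl. The median rank over all member peaks was 71.1 and 59.6, and over those nearest to a start of the 10 genes it was 64.8 and 49.8. Windows differed in how much they held: Cspg4 had 27 and 35 peaks, Mcam 25 and 40 and Notch3 21 and 22, while Abcc9 had 2 and 8 and Rgs5 had 3 and 3. Myh11 had 5 and 7, Pdgfrb 5 and 10, Myocd 6 and 10, Tagln 11 and 18 and Cnn1 14 and 16. The median over the 10 genes was 8.5 and 13, against 7 and 9 over all protein-coding genes.

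Replicate 1 peaks were mostly found again. Of its 119 peaks 110 overlapped a peak of replicate 2, which is 92.4% against 79.6% over all its peaks. Of the 169 peaks of replicate 2, 110 overlapped one of replicate 1, which is 65.1% against 60.8%. Peaks found in 1 library were mostly weak, with a median rank of 32.4 for the 9 of replicate 1 and 33.7 for the 59 of replicate 2. The highest ranks among them were 61.8 and 74.0. By share Abcc9 differed most, since both of its peaks in replicate 1 were shared but 6 of 8 in replicate 2 were not. By number Mcam had the most unshared peaks in replicate 2, 20 of 40, followed by Cspg4 with 9 of 35. Each library also has a shorter peak list, which the promoter peaks of Rgs5 and Myocd did not touch in replicate 1, nor that of Cnn1 in replicate 2.

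Densities at shared peaks were higher in replicate 1, as they were across the genome. Over the 110 pairs the ratio of replicate 1 to replicate 2 had a median of 1.51, and 107 pairs were above 1, while over all 75098 pairs the median was 1.41 and 91.3% were above 1. Among the 10 genes the median ratio ran from 1.29 at Rgs5, with 3 pairs, to 1.67 at Pdgfrb, with 5, and at Notch3, with 20. The promoter of Rgs5 was among the few pairs that were not higher in replicate 1. How far the ratio reflects depth or the authors' scaling was not tested.

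Footprints numbered 262 inside the member peaks of replicate 1 and 402 in those of replicate 2, of 210189 and 335055 in all. Mcam held the most, 58 and 99, followed by Cspg4 with 51 and 94 and Notch3 with 50 and 56. At the low end Rgs5 held 3 and 5, Abcc9 5 and 13 and Myocd 7 and 12. In paired peaks, 178 of 255 footprints of replicate 1, or 69.8%, overlapped one of replicate 2, against 67.4% over all pairs. The deposited footprints carry 1 constant and so cannot be ranked by strength.

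**Figure D3:**
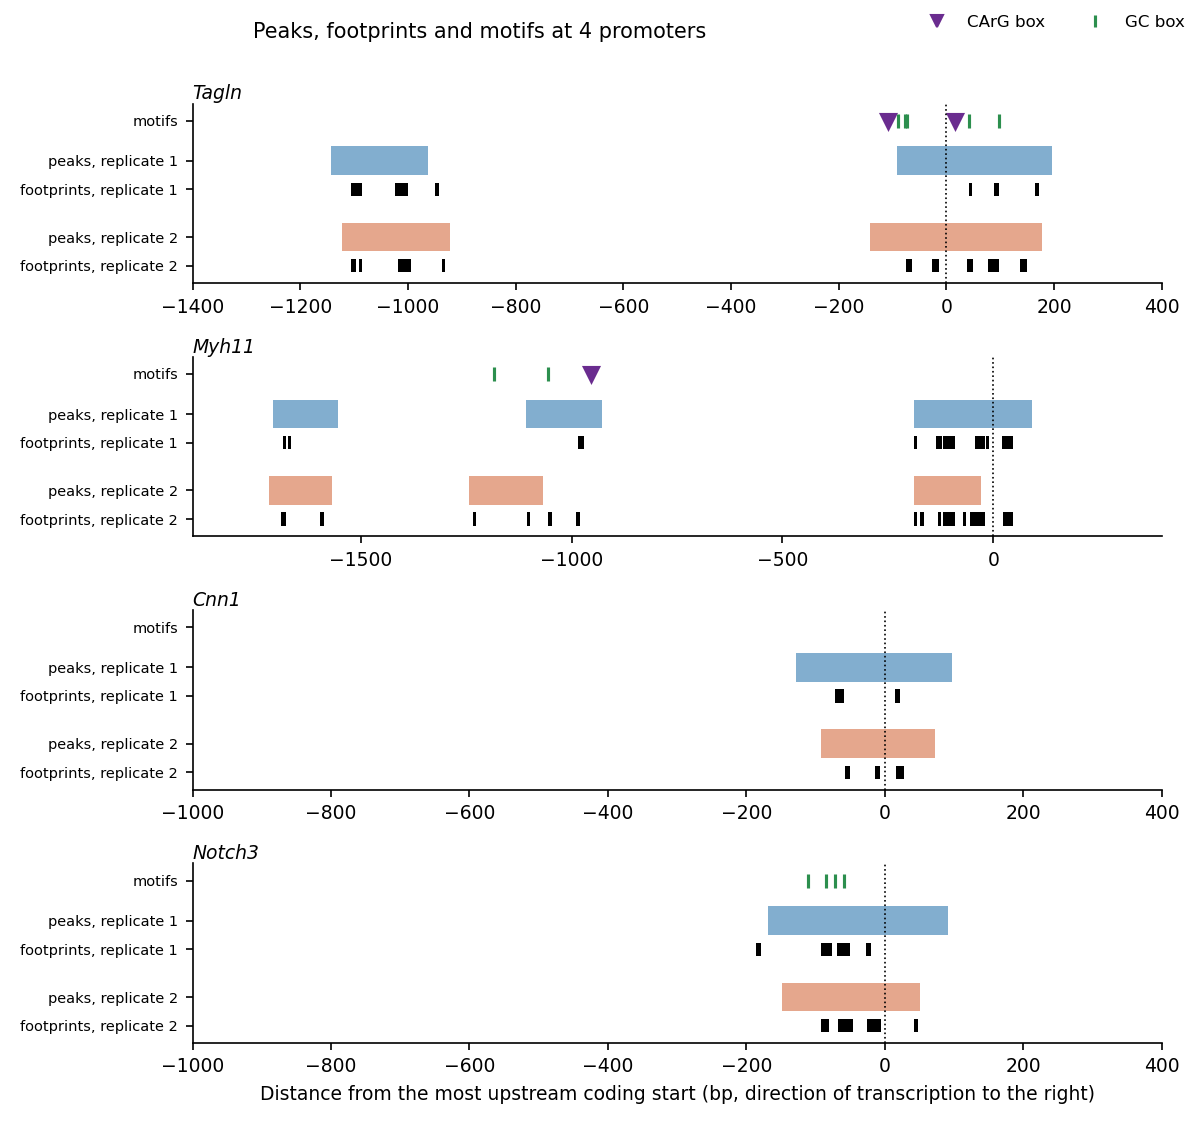
Peaks, footprints, CArG boxes and GC boxes (GGGCGG) around the starts of Tagln, Myh11, Cnn1 and Notch3, with the distance from the most upstream protein-coding start in bp and transcription to the right. The Tagln CArG boxes at 11 and -112 bp lie outside every footprint, and footprints of both libraries cover GC boxes of Notch3 at -61 and -87 bp. Over the genome, 2.64% of CArG boxes and 22.4% of GC boxes in shared regions lie in a footprint of both libraries.

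Sequence motifs were counted in 106 stretches, each the union of peaks shared by the libraries. The CArG box was in 3 of them, 2.83%, against 0.925% of the 72558 shared stretches of the whole genome and 1.63% of 32851 RefSeq promoter windows around annotated starts (build GRCm38.p6, in which 6 of the 10 genes had an entry). With so few matches this share rests mostly on Tagln and Myh11, and 1 of the 4 boxes was within the overlap of both peaks. The RBPJ core GTGGGAA, through which Notch receptors act, was in 12 stretches, 11.3%, against 5.98% of all stretches and 6.38% of promoter windows. Of its 15 matches 10 were nearest to the start of a member: 3 at Mcam, 2 each at Cspg4, Pdgfrb and Notch3, and 1 at Myh11. Both Pdgfrb matches, those of Mcam at 1248 and 1474 bp and that of Cspg4 at 6289 bp lay only in the peak of replicate 2. The Notch3 matches lay in its own introns at 4535 and 2459 bp. None of the 15 was wholly inside a footprint of either library, though 3 touched one in replicate 1 and 1 in replicate 2. Over all shared stretches only 4.16% of RBPJ matches lay in a footprint of both, so 15 matches are too few to read this as a trait of these genes. The MCAT element GGAATG, bound by TEAD factors, was in 17.9% of member stretches and 13.2% of all.

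Other motifs had shares near those of all stretches. The E-box CAGCTG was in 29.2% against 27.4%, the E-box CACGTG in 5.66% against 5.91%, the SMAD core CAGACA in 17.9% against 19.4%, the AP-1 site TGANTCA in 4.72% against 6.86% and the GC box in 30.2% against 29.8%. In the promoter windows these 5 motifs had shares of 16.3%, 7.15%, 21.0%, 7.81% and 35.7%, and MCAT had 14.7%. MEF2, the site of a muscle factor family, was in 1 stretch, at -31990 bp from Cspg4, and in 0.420% of all stretches and 0.557% of windows. Both strands were searched, overlapping matches of different motifs were each counted, and the stretches of the members were slightly wider, with a median of 220 bp against 200.

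A motif lay wholly inside a footprint of both libraries 17 times, and 15 of these were GC boxes. That is 26.3% of the 57 GC boxes in member stretches, against 22.4% of all GC boxes in shared stretches. Nearest to members' own starts were 4 of them, at -14 bp in the Cspg4 promoter, at -61 and -87 bp in the Notch3 promoter and at 4543 bp in a Notch3 intron. The other 11 belonged to neighbours, among them 3 at the start of Usp2 and 1 at that of Rnf26 near Mcam, 1 each near Rnf214 and Pafah1b2 around Tagln, 1 each near Gm16845, Ecsit and Elof1 around Cnn1, and 1 near Gm17276 around Notch3. A SMAD core in a Notch3 intron, at 2695 bp, also lay in a footprint of both.

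Genes of the same pathways are set against the 64.1% of all protein-coding genes that were open in both libraries. The PDGF ligands and receptors other than the members had a promoter peak in both libraries in 5 of 5 cases, with Pdgfra, the fibroblast receptor, at a mean rank of 91.4 and the ligand Pdgfa at 87.1. Notch ligands, receptors and targets were open in 11 of 11, led by the DNA-binding partner Rbpj at 99.1 and the receptor Notch2 at 98.5. The list of SRF and related factors was open in 5 of 5, with the myocardin-related coactivator Mrtfa at 98.8 and Klf4, a repressor of the contractile state, at 96.5. Other contractile genes of smooth muscle were open in 8 of 11, near the share over all genes, with Smtn at 92.5 and Itga8 at 92.4 and no promoter peak in either library at Actg2, Mylk and Pln. Other pericyte genes were open in 10 of 12, with Tbx18 at 91.4 and Kcnj8, the pore partner of Abcc9, at 86.9, and with none at Cox4i2 and Higd1b. The median mean rank, with closed genes as 0, was 93.99 for the Notch list, 96.1 for the SRF list, 75.4 for PDGF, 71.8 for the pericyte list, 70.6 for the contractile list and 76.6 for the 10 genes, against 77.3 over all protein-coding genes. Many of these regulators act in most cell types.

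Markers of other cells in the muscle differed in how many were open, again against 64.1% of all genes. Of the skeletal muscle genes, 9 of 10 were open in both libraries, with the intermediate filament gene Des at 88.5 and Myod1 at 85.3, and none at Mymk. Fibroblast genes had one in 9 of 10 (Tcf7l2 at 94.8, Col1a1 at 93.4), endothelial genes in 6 of 10 (near that share, Egfl7 at 80.9, Kdr at 74.9, none at Erg and Pecam1) and Schwann cell genes in 5 of 8 (also near it, Prx at 98.2, none at Cdh19). Macrophage genes were below it, with 2 of 8 (Fcgr3 at 91.9 and Cd14 at 40.6, while Adgre1 and Aif1 had no peak in either). What part of the accessibility at the 10 genes came from cells other than mural cells was not tested.

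**Figure D4:**
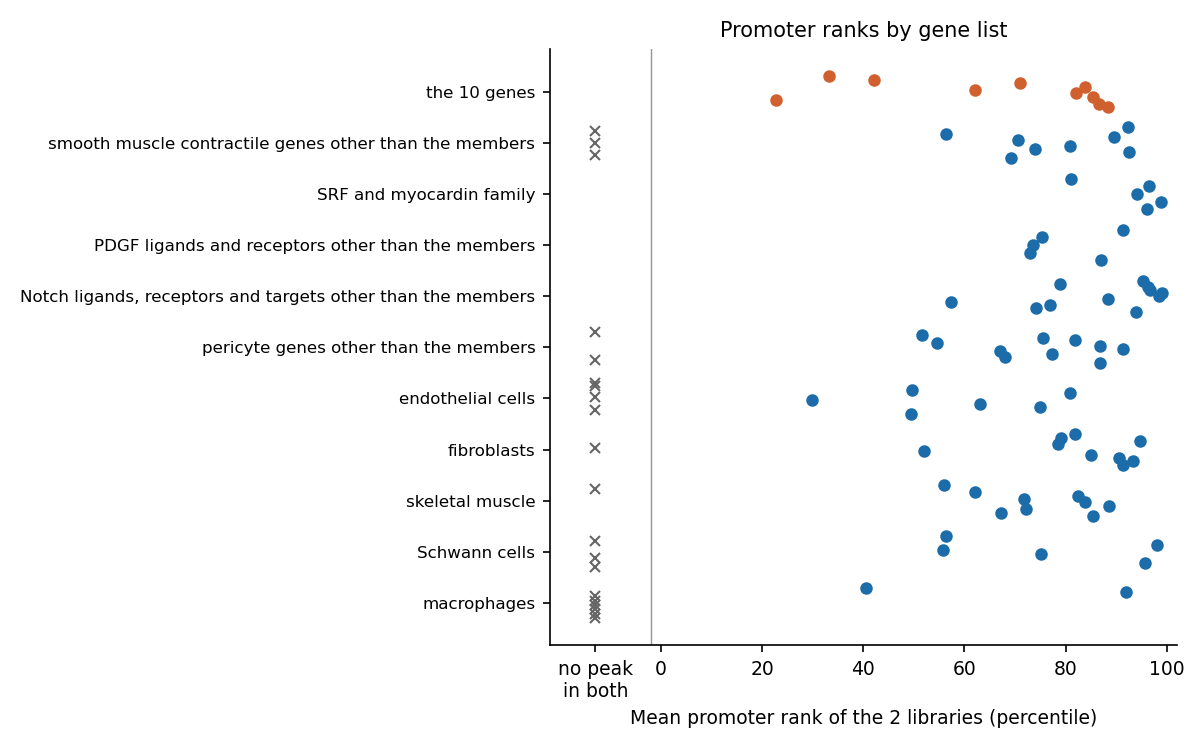
Mean promoter rank of the 2 libraries (percentile) for each gene of the 10 genes (orange) and of 10 other lists (blue), with crosses at the left for genes without a promoter peak in both libraries. The 10 genes spread from 22.6 to 88.5, while 6 of 8 macrophage genes are crosses.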

How the data were processed

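DNase-seq libraries of gastrocnemius from 1 group of 2 biological replicates were used as deposited. Per the labels the assembly is mm10. Aligner and peak caller: not given in the sources used here. The authors deposited for each library a longer and a shorter peak list with a cut density (signal) per peak, a list of footprints with a constant score, and false discovery rates (FDR, a q-value) below 0.05. Read depth is unknown here, and no counting interval was computed. Densities below 1 were whole multiples of 1 step within 0.1 step in 100% of peaks of both libraries, and the step of replicate 1 was 2.03 times that of replicate 2. Whether the step scales with depth was not tested.

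The longer lists were used. Peaks centred within 50 kb of any transcript start of a member were kept. A promoter peak touched the 500 bp on either side of a protein-coding start, a distal peak was centred more than 1 kb from every annotated start, and shared peaks overlapped by at least 1 bp. Footprints had to lie wholly inside a peak and were counted once. Starts came from GENCODE vM21 and sequence from GRCm38.p6. Motifs were searched on both strands. The members and lists were chosen with earlier results of these data known. All 10 members are named, with the strongest promoter and shared distal peak, every CArG box in a shared peak and every motif in a footprint of both libraries. Of other lists the 2 genes with the highest mean promoter rank and up to 2 with no promoter peak in either library are named, in alphabetical order. Some items the rule names are not reported here. Mylk, Actg2 and Pln are all given as the only 3 of their list. Interval and motif code was tested on simulated data. Alternatives were other peak lists, windows, promoter widths, starts and overlaps, and each library alone. Python 3.11.15, numpy 2.4.6, pysam 0.24.0 and samtools 1.23.1 were used.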

Additional observations from a re-analysis of the deposited data

How the results depend on the processing

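The count of 10 members with a promoter peak in both libraries was 7 with the shorter lists and with the strongest 50% of peaks, and 10 under every other setting tried. Promoter ranks were recomputed only with other promoter widths and starts, not with other peak lists. Of these 40 alternatives 38 were unchanged, which says little because the same peak can stay the strongest. The other 2 moved by more than 1 SD: Mcam to 79.5 with promoters of 200 bp and Tagln to 77.6 with 1000 bp. The mean number of member peaks was 95 with the strongest 50% of peaks and 218.5 with a window of 100 kb, and 119 to 169 with either library alone. Shared peaks fell to 72 in the shorter lists and came to 167 in the 100 kb window. Footprints came to 520.5 in that window, and to 262 to 402 with 1 library. Shared distal peaks, 61 in all, were 35 in the shorter lists and 94 within 100 kb, and with 1 library alone 66 to 104 distal peaks were counted. The share of all genes with a promoter peak in both libraries, 64.1%, was 59.4% in the shorter lists, 57.8% with the strongest 50% of peaks, 61.7% and 65.5% with promoters of 200 and 1000 bp, 59.96% with the most upstream start, and 65.3% to 67.1% with 1 library. The 4 CArG boxes were 1 in the overlap of both peaks alone and 21 with 1 mismatch, and 30 motifs touched a footprint of both libraries, against 17 wholly inside. With only peaks nearest to a member's start, chosen after seeing the data, 62 peaks, 47 shared peaks, 145.5 footprints and 30 shared distal peaks were left. Sharing could not be computed from 1 library. No paired analysis was possible because there is 1 group.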

Other observations

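The deposited FDR lists, which mark bases with an FDR (q-value) below 0.05, covered the 10 windows unevenly. Over all chromosomes 0.980% of bases in replicate 1 and 1.35% in replicate 2 were listed. The Mcam window held 6.58% and 13.96%, the Cspg4 window 5.83% and 8.21%, the Rgs5 window 0.373% and 0.574%, and the Myocd window 0.899% and 1.34%, the last 2 below the whole genome in both libraries. Abcc9 was below the genome in replicate 1, at 0.593%, and above it in replicate 2, at 1.96%. At the promoter of Mcam all 1001 bases around the most upstream start were listed in both libraries, and at Rgs5 53 and 229 bases were. Within the promoters, the lowest FDR at Myh11 was 1.84e-23 in replicate 1 and 6.92e-27 in replicate 2, at Mcam 2.05e-11 and 2.06e-37, and at Rgs5 0.0170 and 0.000316, as the authors' lists give them.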
